A study of Mus musculus with 15 samples.

Results

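The genes described here are 10 immediate early genes, followed in tumors injected with poly(I:C). They are Fos, Fosb, Jun, Junb, Jund, Egr1, Egr2, Egr3 and Atf3, of the AP-1 and EGR families, and Ier2, which belongs to neither. They were chosen by name, with earlier results of these data known, and make up 10 of the 32543 gene entries in the count table. All 10 passed the filter on low counts, which left 15494 genes for testing. RNA was sequenced from 15 subcutaneous tumors of WEHI-164, a mouse fibrosarcoma cell line, grown in wild-type (WT) female BALB/c mice that were 8 to 12 weeks old across the study. The 3 day 0 tumors were untreated. The other 12 were injected with poly(I:C), a synthetic double-stranded RNA sensed by Toll-like receptor 3, with 3 tumors taken at each of days 1, 3, 5 and 7. The labels give a daily intratumoral dose of 1 µg in 25 µL, planned for 6 doses. That dose is uncertain, because supplementary material of the study states a higher one. All untreated tumors were from day 0, so the effect of treatment and that of time or of repeated injection cannot be told apart. The interval between the last injection and harvest is not given in the sources used here. The labels name separate tumors but no animals, so the p-values measure the spread between tumors.

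Immediate early genes are switched on within minutes of a growth factor, cytokine or stress signal, without new protein synthesis, and their transcripts are short-lived. Mitogen-activated protein kinases carry much of this signal to serum response factor and its partners and to CREB-type factors at the promoters. Fos and Fosb encode proteins that pair with Jun, Junb or Jund to form the transcription factor AP-1. Egr1, Egr2 and Egr3 encode zinc finger transcription factors, Atf3 a stress-induced factor of the same structural class as AP-1, and Ier2 a small nuclear protein. In a tumor these transcripts can come from malignant cells, stroma or infiltrating immune cells. In bulk tumor RNA, fewer cells of a type and less RNA per cell cannot be told apart.

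Promoter sequence is shown for Egr2, Jun and Junb, whose mean levels were lower on days 1 and 3 than on day 0, and for Fos, whose mean was higher on day 3. RefSeq promoter windows on GRCm38.p6 were used for 7 of the 10 genes. The promoters of Egr1, Egr3 and Ier2 were not searched, so nothing is said of their motifs. The 250 bases before the start site are printed 5′ to 3′ on the strand of the gene, and capitals mark the matches of the motifs named after them. Fos lies on chromosome 12 (chr12:85473640-85473889, plus strand), Jun on chromosome 4 (chr4:95052223-95052472, minus strand), Junb on chromosome 8 (chr8:84978749-84978998, minus strand) and Egr2 on chromosome 10 (chr10:67537619-67537868, plus strand). Egr2 has 5 windows, and the one shown was picked for its motifs.
Fos: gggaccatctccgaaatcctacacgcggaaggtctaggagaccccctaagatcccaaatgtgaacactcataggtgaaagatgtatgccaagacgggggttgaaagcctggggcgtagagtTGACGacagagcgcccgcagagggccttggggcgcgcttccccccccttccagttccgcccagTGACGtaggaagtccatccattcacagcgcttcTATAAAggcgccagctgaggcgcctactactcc
Jun: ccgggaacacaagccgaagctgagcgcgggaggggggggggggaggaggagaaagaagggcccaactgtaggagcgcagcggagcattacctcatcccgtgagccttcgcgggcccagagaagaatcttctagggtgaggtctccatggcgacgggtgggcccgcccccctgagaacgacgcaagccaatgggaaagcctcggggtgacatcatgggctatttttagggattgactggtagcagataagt
Junb: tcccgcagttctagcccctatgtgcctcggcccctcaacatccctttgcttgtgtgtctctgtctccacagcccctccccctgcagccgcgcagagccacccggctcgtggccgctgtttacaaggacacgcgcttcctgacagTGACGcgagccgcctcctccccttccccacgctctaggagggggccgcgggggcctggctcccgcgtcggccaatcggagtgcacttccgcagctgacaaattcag
Egr2: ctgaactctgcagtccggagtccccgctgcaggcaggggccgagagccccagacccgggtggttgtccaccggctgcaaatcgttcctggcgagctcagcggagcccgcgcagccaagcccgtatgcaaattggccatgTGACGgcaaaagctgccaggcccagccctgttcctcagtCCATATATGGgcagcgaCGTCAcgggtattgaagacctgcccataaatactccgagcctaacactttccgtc
The motifs were searched on both strands. One was the CArG box bound by serum response factor. Another was the cyclic AMP response element, TGACGTCA, which CREB-type factors bind, and its core, TGACG, was searched as well. AP-1 sites were searched as TGANTCA, which AP-1 proteins bind in their target genes. The TATA box, where the basal machinery assembles, was searched as TATAAA. Distances are counted from the start site to the first base of a match. In the Egr2 window a CArG box stood 72 bases before the start, with core elements, marked in capitals on either strand, at 111 and 55 bases. Of the other 4 Egr2 windows, 2 overlap it and hold the same matches, the one that starts at 67537316 held a different CArG box alone, and the one that starts at 67535249 held none of the motifs. The Fos window held the core element at 129 and 66 bases and a TATA box at 33 bases before the start. In the Junb window the core element stood at 106 bases, and the Jun window held none of the 5 motifs. Of the searched genes not printed here, Atf3 held the core element at 7 bases and Fosb at 60 bases. The Jund window held none of the 5 motifs. Only exact matches within the windows were counted, so a variant motif or one farther from the start would be missed. Among all 32817 mouse promoter windows of this length, 1.47% held a CArG box, 1.55% the whole response element, 6.75% an AP-1 site, 17.7% the core element, which lies within the whole one, and 12.4% a TATA box. The core element was added to the search after the sequences were seen. A match is a description of the letters and was not measured as a bound site.

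Libraries held 23.7 to 31.9 mega-counts each. Levels are given as CPM, which divides counts by the library total in mega-counts after TMM scaling, a correction for library composition. Each of the 10 genes had counts in all 15 tumors, from 55 for Egr3 in its lowest tumor to 6453 for Egr1 in its highest. Day 3 replicate 1 stood apart from the other tumors, with a mean correlation of 0.884 with them against at least 0.956 for each of the other 14. Its fibroblast marker genes summed to 26510 CPM, against 3433 and 4107 CPM in the other day 3 tumors and 2851 to 4409 CPM on day 0. Skeletal muscle markers summed to 3752 CPM there, against 64.6 to 178 CPM in the other day 3 tumors and 95.9 to 197 CPM on day 0. Macrophage markers were at 2701 to 6810 CPM on day 3 and 1629 to 1773 CPM on day 0, and T cell markers at 105 to 371 CPM and 36.4 to 50.0 CPM. All 8 fibroblast markers had counts in every tumor. The tumor line is itself a fibrosarcoma, and whether these transcripts came from malignant cells or from stroma was not tested. The share of mitochondrial transcripts, a coarse sign of RNA quality, lay between 2.02% and 2.98%. Counts by p and fold changes that rest on day 3 are therefore also given without this tumor where it moved them. Counts of genes without overlap between days 3 and 0 are given with all tumors only. The part of cell composition in these values was not tested.

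Per kilobase of exon, the genes spanned a wide range of levels. Junb had the highest mean over the 15 tumors at 59.6 CPM per kilobase, followed by Jun at 47.5, Jund at 37.5, Egr1 at 29.8 and Ier2 at 28.0 CPM per kilobase. Fos and Atf3 stood at 14.9 and 13.2 CPM per kilobase, Egr2 at 8.0, Fosb at 1.52 and Egr3 at 0.834 CPM per kilobase. Over the tumors, the ranges of neighbours in this order overlapped, except those of Egr2 (5.56 to 13.9 CPM per kilobase) and Fosb (0.606 to 3.76 CPM per kilobase). Between the highest and the lowest tumor, levels differed 6.19-fold for Fosb, 4.88-fold for Egr1, 4.25-fold for Fos and 4.0-fold for Atf3, but 1.27-fold for Jund. The harvest day held 72.0% of the variance of log2 CPM for Egr2, 70.4% for Ier2, 65.9% for Egr1, 63.8% for Egr3, 62.8% for Junb and 57.6% for Jun. It held 35.4% for Fosb, 32.9% for Fos, 24.5% for Atf3 and 16.6% for Jund, whose differences lay mostly among tumors of the same day. These shares come from 5 day means fitted to 15 tumors, so they lie well above 0 even for a gene that does not differ by day. They were not set beside the shares of all genes. The joint test over the 4 treated days called 0 of the 10 genes at an adjusted p under 0.05 (edgeR quasi-likelihood test), as it did 0.00% of all genes. At an unadjusted p under 0.05, 6 of the 10 were counted (Jun, Junb, Egr1, Egr2, Egr3 and Ier2), against 16.2% of all genes, and 5 without day 3 replicate 1, against 7.22%. DESeq2 called 4 (Junb, Egr1, Egr2 and Ier2, adjusted p from 0.00686 to 0.0490), against 7.65% of all genes, and 3 without day 3 replicate 1 (Egr1, Egr2 and Ier2), against 1.14%.

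**Figure D1:**
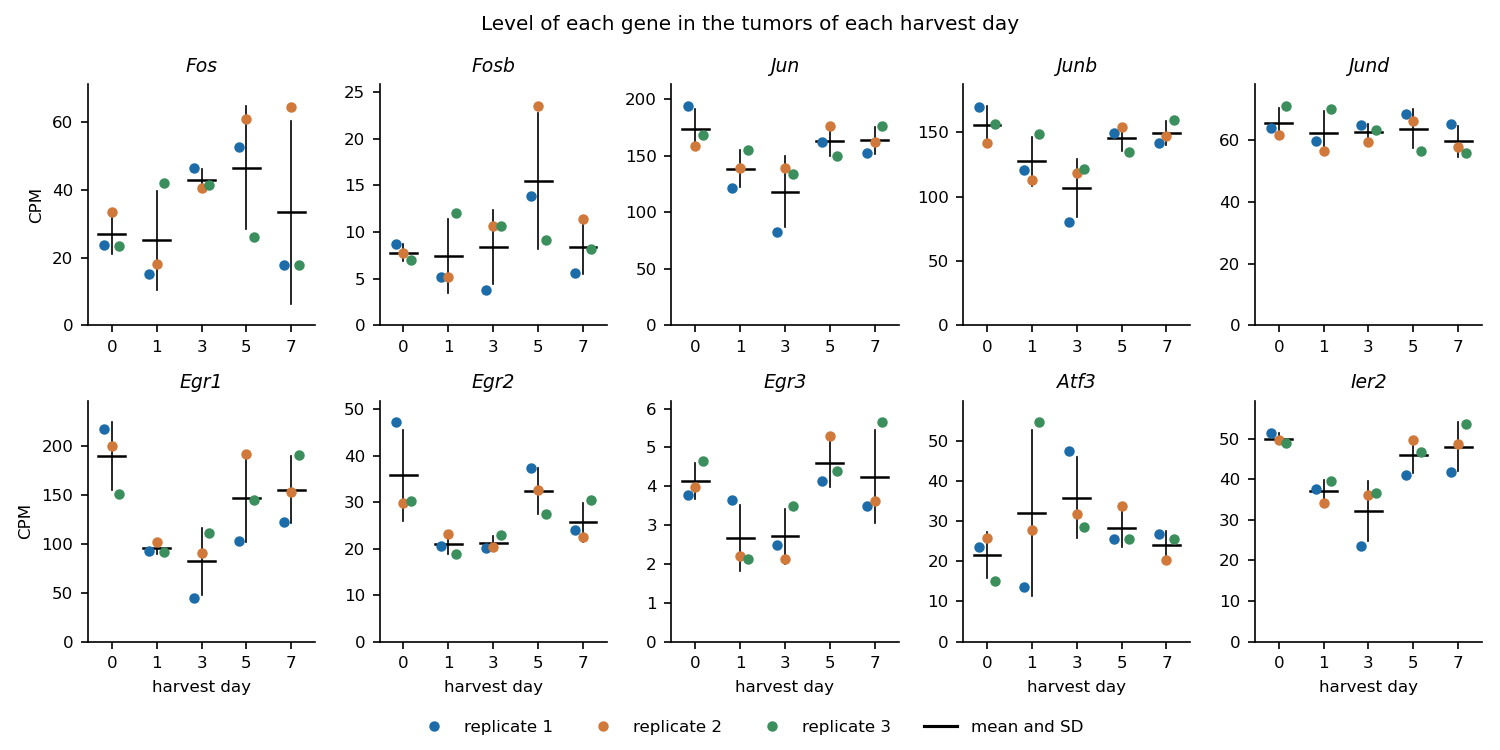
Level of each gene in CPM (vertical axes, each starting at 0) in the 3 tumors of each harvest day, with points coloured by replicate number, a horizontal bar for the mean and a vertical bar for the SD (n = 3). Egr1, Egr2, Egr3, Jun, Junb and Ier2 have lower means on days 1 and 3 than on the other days, whereas Fos, Fosb and Atf3 do not share this course and Jund stays between 55.6 and 70.8 CPM.

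Egr1, a zinc finger factor that responds to many growth and stress signals, had the largest log2 fold changes of the 10 genes on days 1 and 3. It stood at 218, 199 and 151 CPM in the 3 day 0 tumors and at 92.3, 102 and 91.9 CPM in the day 1 tumors. On day 3 its levels were 44.6, 90.4 and 111 CPM in replicates 1, 2 and 3. The day 1 and day 3 tumors all lay below the lowest untreated tumor, and day 3 replicate 1 was the lowest of all 15. On day 5 the 3 tumors had 103, 191 and 144 CPM and on day 7 they had 122, 153 and 190.5 CPM, so that both days overlapped day 0. The day 1 mean was 50.4% and the day 3 mean 43.3% of the day 0 mean of 189 ± 34.4 CPM (SD, n = 3). The log2 fold change from day 0 was -0.99 with a standard error (SE) of 0.30 on day 1, and -1.21 with an SE of 0.30 on day 3 (edgeR adjusted p = 1 and 0.115). Without day 3 replicate 1 the day 3 value was -0.91.

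Egr2, a relative of Egr1 known for its part in myelination and in lymphocyte and macrophage regulation, was also lower on days 1 and 3, and its day 7 mean lay below that of day 5. Its levels were 47.1, 29.8 and 30.3 CPM on day 0, 20.7, 23.1 and 18.9 CPM on day 1 and 20.2, 20.3 and 23.0 CPM on day 3. None of the 6 tumors of days 1 and 3 reached the lowest untreated tumor, and day 3 replicate 1 did not stand out. On day 5 it had 37.3, 32.5 and 27.5 CPM, and on day 7 it had 23.9, 22.6 and 30.4 CPM. The log2 fold change was -0.78 (SE 0.19) on day 1 and -0.76 (SE 0.19) on day 3, with edgeR adjusted p-values of 0.641 and 0.115. Without day 0 replicate 1, the tumor with the highest level, these were -0.53 and -0.51. On day 7 the value was -0.48 (SE 0.19, adjusted p = 1), and -0.23 without day 0 replicate 1. Egr2 lies on chromosome 10, from 67535475 to 67542188 on the plus strand (GENCODE M21 on GRCm38, as for the other genes).

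Egr3, on chromosome 14 (70077203 to 70082614, plus strand), is a target of calcium and antigen receptor signaling and was the least abundant of the 10 genes. It had 3.78, 3.98 and 4.64 CPM on day 0, 3.64, 2.19 and 2.14 CPM on day 1 and 2.50, 2.13 and 3.50 CPM on day 3. All tumors of days 1 and 3 lay below the untreated ones, by a small margin in day 1 replicate 1 and day 3 replicate 3. The levels on day 5 were 4.14, 5.30 and 4.38 CPM, and those on day 7 were 3.50, 3.61 and 5.64 CPM. Relative to day 0, the log2 fold change was -0.64 (SE 0.28) on day 1 and -0.61 (SE 0.28) on day 3, and the day 3 value was -0.55 without day 3 replicate 1.

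Ier2, a rapidly induced nuclear protein encoded on chromosome 8 (84661331 to 84662852, minus strand), had the tightest untreated values. They were 51.5, 49.8 and 48.9 CPM, against 37.6, 34.2 and 39.7 CPM on day 1 and 23.6, 36.3 and 36.8 CPM on day 3. Every tumor of days 1 and 3 was below every untreated tumor. By day 5 the levels were 41.1, 49.8 and 46.9 CPM, and on day 7 they were 41.7, 48.8 and 53.6 CPM, overlapping day 0. On day 1 the log2 fold change was -0.43 (SE 0.15) and on day 3 it was -0.64 (SE 0.16), with adjusted p-values of 1 and 0.115 by edgeR, and the day 3 value was -0.45 without day 3 replicate 1.

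Jun and Junb, AP-1 subunits of which Jun is the stronger activator, differed less. Jun, on chromosome 4 (95049034 to 95052222, minus strand), had 194, 159 and 169 CPM on day 0, 122, 139.6 and 155 CPM on day 1 and 82.4, 139 and 134 CPM on day 3. The day 1 and day 3 tumors were all below the untreated ones, with day 3 replicate 1 far below the rest. On day 5 Jun stood at 163, 176 and 150.01 CPM, and on day 7 at 153, 162 and 176 CPM. Junb, also on chromosome 8 (84974484 to 84978718, minus strand), had 170.0, 142 and 156 CPM on day 0, 121, 113 and 149 CPM on day 1 and 80.5, 119 and 121 CPM on day 3. Its day 1 tumors overlapped the untreated ones through replicate 3, and its day 3 tumors did not. On day 5 it stood at 149, 154 and 134 CPM, and on day 7 at 142, 147 and 159 CPM. The day 3 log2 fold change was -0.55 for both Jun (SE 0.17) and Junb (SE 0.15), with edgeR adjusted p-values of 0.115 for each. Without day 3 replicate 1 the values were -0.35 and -0.38, so this tumor moved that of Jun by more than 1.5 times. On day 1 the values were -0.32 (SE 0.17) for Jun and -0.29 (SE 0.15) for Junb.

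Fos, the founding partner of Jun in AP-1, is encoded on chromosome 12 (85473890 to 85477273, plus strand) and did not follow the course of Jun and Junb. It had 23.7, 33.6 and 23.5 CPM on day 0, 15.2, 18.2 and 42.1 CPM on day 1 and 46.6, 40.5 and 41.5 CPM on day 3. All 3 day 3 tumors, replicate 1 included, lay above all untreated tumors, whereas the day 1 tumors lay on either side. On day 5 Fos was at 52.7, 60.9 and 26.2 CPM and on day 7 at 17.8, 64.7 and 17.98 CPM, the widest spread of any day. The log2 fold change on day 3 was 0.67 (SE 0.51, edgeR adjusted p = 0.347), and 0.61 without day 3 replicate 1. It was 0.79 (SE 0.51) on day 5, -0.10 (SE 0.51) on day 1 and 0.32 (SE 0.51) on day 7. The day 7 value was -0.59 without day 7 replicate 2, and the day 1 value was -0.69 without day 1 replicate 3.

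Fosb, a Fos relative best known from the nervous system, lies on chromosome 7 (19302696 to 19310051, minus strand). Its levels were 8.70, 7.74 and 6.97 CPM on day 0, 5.21, 5.15 and 12.03 CPM on day 1 and 3.79, 10.7 and 10.7 CPM on day 3. Day 3 replicates 2 and 3 were above the untreated tumors and replicate 1 was the lowest of all 15. On day 5 Fosb had 13.9, 23.4 and 9.16 CPM, all above day 0, and on day 7 it had 5.61, 11.4 and 8.19 CPM. The log2 fold change on day 5 was 0.99 (SE 0.46, edgeR adjusted p = 0.859), and 0.56 without day 5 replicate 2. On day 3 it was 0.10 (SE 0.46), 0.46 without day 3 replicate 1, and -0.03 by limma-voom.

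Atf3, which is induced by stress and by Toll-like receptor signals, lies on chromosome 1 (191170296 to 191218039, minus strand). It stood at 23.5, 25.9 and 15.1 CPM on day 0, 13.6, 27.8 and 54.5 CPM on day 1 and 47.3, 31.7 and 28.5 CPM on day 3. The day 1 tumors held both the lowest and the highest level of all 15, and the day 3 tumors were all above the untreated ones. Levels on day 5 were 25.6, 33.7 and 25.6 CPM, and on day 7 they were 26.7, 20.3 and 25.4 CPM. The log2 fold change was 0.57 (SE 0.39) on day 1 and 0.74 (SE 0.39, edgeR adjusted p = 0.205) on day 3. The day 1 value was -0.05 when its replicate 3 was left out, 0.94 when its replicate 1 was, and 0.37 when day 0 lost replicate 3. The day 3 value without day 3 replicate 1 was 0.49. Jund, the AP-1 subunit that most cells express steadily, is on chromosome 8 (70698949 to 70700616, plus strand) and had 61.7 to 70.8 CPM on day 0, 56.5 to 70.1 on day 1 and 59.4 to 64.7 on day 3. Its levels were 56.4 to 68.2 CPM on day 5 and 55.6 to 65.1 CPM on day 7, and all days overlapped. Its log2 fold changes from day 0 lay between -0.14 and -0.04, with SEs of 0.11.

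**Figure D2:**
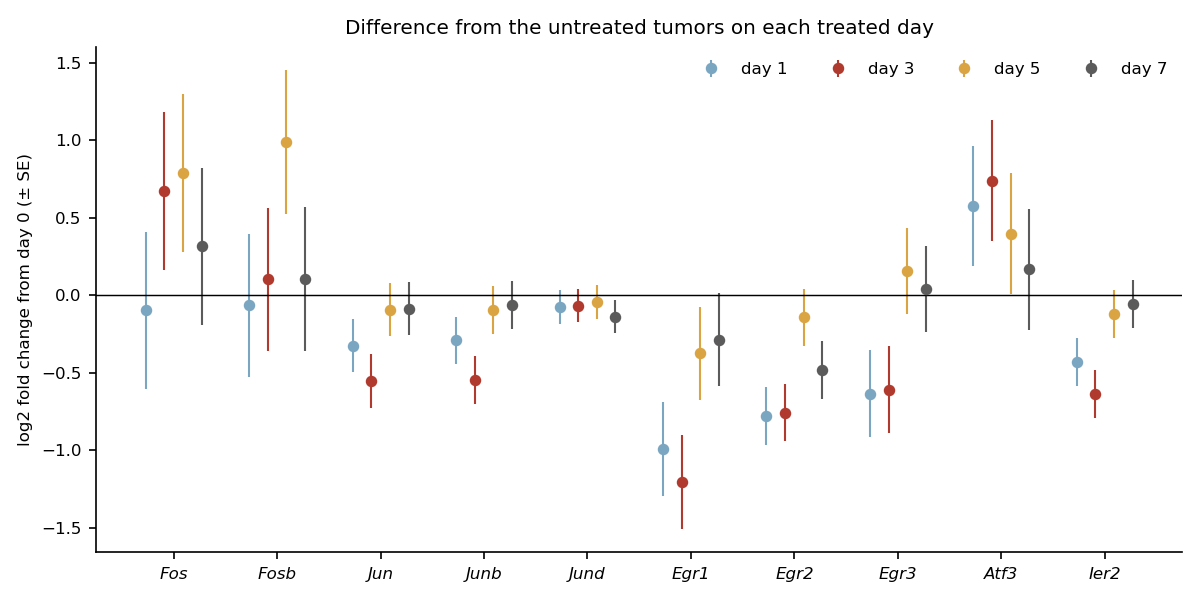
Log2 fold change of each gene from the day 0 tumors on days 1, 3, 5 and 7 (points, vertical axis), with bars for the standard error of the edgeR fit over all 15 tumors. Egr1 lies lowest, at -0.99 on day 1 and -1.21 on day 3, and the values of Jun, Junb, Egr3 and Ier2 lie between -0.12 and 0.16 on days 5 and 7.

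The comparison of day 1 with day 0 asked whether the genes differed after the first day of treatment. By edgeR, 0 of the 10 genes were called at an adjusted p under 0.05, against 0.00% of all genes, and DESeq2 called 1 (Egr2, log2 fold change -0.78, adjusted p = 0.0467), against 0.258% of all genes. At an unadjusted p under 0.05, 4 of the 10 were lower (Egr1, Egr2, Egr3 and Ier2) and 0 were higher, against 0.981% and 2.18% of all genes. Without day 3 replicate 1, which enters the shared estimate of the spread, Jun and Junb joined them, making 6 of 10 against 1.83% of all genes. The 3 day 1 tumors lay wholly below the 3 untreated tumors for 5 of the 10 (Jun, Egr1, Egr2, Egr3 and Ier2), against 6.61% of all genes. The median log2 fold change of the 10 was -0.31, beside -0.00024 for all genes tested. Of the 10, 9 lay below 0, as did 7755 of all 15494 genes. Of those 9, Fos, Fosb and Jund lay between -0.10 and -0.06.

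Day 3 was set against the same untreated tumors. EdgeR called 0 of the 10 genes, against 0.00% of all genes, with 6 of 10 lower at an unadjusted p under 0.05 (Jun, Junb, Egr1, Egr2, Egr3 and Ier2) and 0 higher, against 11.7% and 18.3% of all genes. In 38.3% of all genes the day 3 and day 0 tumors did not overlap. Among the 10, the same 6 genes were wholly lower, against 19.0% of all genes, and Fos and Atf3 wholly higher, against 19.4%. The median log2 fold change was -0.55, beside -0.02 for all genes. Without day 3 replicate 1, 5 of 10 were lower at an unadjusted p under 0.05 (Jun, Junb, Egr1, Egr2 and Ier2), against 6.56% of all genes, and the median was -0.36. DESeq2 called 5 of 10, all of them lower (Jun, Junb, Egr1, Egr2 and Ier2, adjusted p from 0.00852 to 0.0283), against 12.9% of all genes in either direction. With that tumor left out it called 2 (Egr1 and Ier2, adjusted p = 0.0412 and 0.0406), against 0.566% of all genes. Marker levels of several other cell types differed on the same day, as given above, and their part in these values was not tested.

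**Figure D3:**
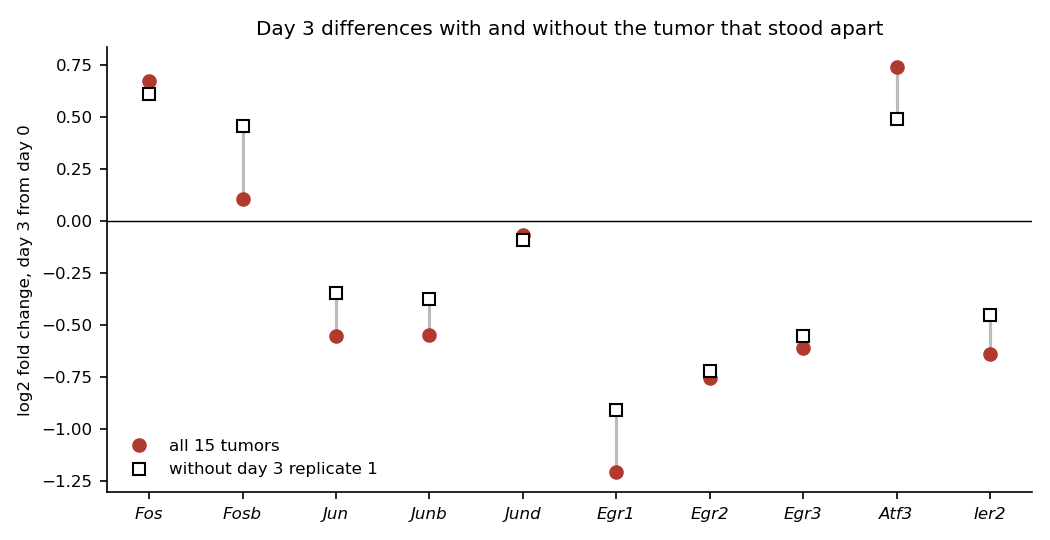
Log2 fold change of each gene between day 3 and day 0 (vertical axis) with all 15 tumors (filled circles) and without day 3 replicate 1 (open squares). Jun, Junb, Egr1 and Ier2 move toward 0 without that tumor but stay below it, Egr2 moves from -0.76 to -0.72, and Fosb moves from 0.10 to 0.46.

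On days 5 and 7, Jun, Junb, Egr1, Egr2, Egr3 and Ier2 had log2 fold changes from day 0 nearer to 0 than on day 3, whereas Fos and Fosb had their highest mean levels on day 5. On day 5, 0 of 10 had an unadjusted p under 0.05 by edgeR against day 0, beside 4.80% of all genes, and the adjusted test called 0 of 10 and 0.00% of all genes. Leaving out day 3 replicate 1, Fosb had an unadjusted p under 0.05 on day 5, 1 of 10 against 9.59% of all genes. The groups did not overlap only for Fosb, which was higher, as were 6.89% of all genes. On day 7, 1 of 10 had an unadjusted p under 0.05 (Egr2, lower), against 1.02% of all genes, with 0 of 10 and 0.00% of all genes called after adjustment and 0 genes without overlap, against 11.3%. Median log2 fold changes of the 10 were -0.07 on day 5 and -0.06 on day 7. DESeq2 called 0 of 10 on either day, against 0.0645% and 0.0323% of all genes.

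Comparisons within the course asked when the levels differed. Between days 1 and 3, 0 of 10 genes had an unadjusted p under 0.05 by edgeR, against 18.4% of all genes, 0 of 10 and 0.00% were called after adjustment, and the day 1 and day 3 tumors overlapped for all 10, whereas they did not in 14.3% of all genes. Leaving out day 3 replicate 1, the count was again 0 of 10, against 3.93%. Between days 3 and 5, 6 of 10 were higher on day 5 at an unadjusted p under 0.05 (Jun, Junb, Egr1, Egr2, Egr3 and Ier2), against 2.69% of all genes, and 0 of 10 and 0.00% passed after adjustment (smallest adjusted p among the 10 = 0.503). The log2 fold changes of these 6 were 0.46 (SE 0.17) for Jun, 0.45 (SE 0.15) for Junb, 0.83 (SE 0.30) for Egr1, 0.62 (SE 0.19) for Egr2, 0.76 (SE 0.28) for Egr3 and 0.51 (SE 0.16) for Ier2. When day 3 replicate 1 was left out they were 0.27, 0.29, 0.55, 0.59, 0.72 and 0.34 in the same order, so that this tumor moved those of Jun, Junb, Egr1 and Ier2 by 1.5 times or more. Leaving out day 3 replicate 1, the same 6 genes had an unadjusted p under 0.05, against 1.37% of all genes, and their tumors did not overlap for 5 (Egr1 excepted), against 7.74%. With all tumors the same 5 of 10 were without overlap, against 5.01% of all genes. The median over the 10 was 0.49, and 0.32 without that tumor, beside -0.0037 for all genes.

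Between days 5 and 7, 0 of 10 genes had an unadjusted p under 0.05, against 3.02% of all genes, with 0 of 10 and 0.00% called after adjustment, and 1 of 10 (Fosb, lower on day 7) against 7.37% when day 3 replicate 1 was left out. From day 3 to day 7, 5 of 10 were higher on day 7 at an unadjusted p under 0.05 (Jun, Junb, Egr1, Egr3 and Ier2), against 12.9% of all genes. The log2 fold changes of these were 0.47 (SE 0.17), 0.48 (SE 0.15), 0.92 (SE 0.30), 0.65 (SE 0.28) and 0.58 (SE 0.16), in that order. When day 3 replicate 1 was left out they were 0.27, 0.32, 0.63, 0.60 and 0.40, with 4 of 10 (Jun, Junb, Egr1 and Ier2) at an unadjusted p under 0.05, against 7.27% of all genes. The value of Egr3 was 0.39 without day 7 replicate 3. EdgeR called 0 of 10 and 0.00% of all genes after adjustment, and the smallest adjusted p among the 10 was 0.0832, for Junb and Ier2. Without day 3 replicate 3 it called 3 (Junb, Egr1 and Ier2, adjusted p = 0.0493 for each), against 13.6% of all genes. DESeq2 called 4 (Jun, Junb, Egr1 and Ier2, adjusted p from 0.0115 to 0.0423), against 20.9% of all genes, and 0 without day 3 replicate 1, against 0.566%. Day 7 lay wholly above day 3 for Jun, Junb, Egr1 and Ier2, as for 14.6% of all genes, and wholly below it for Atf3, as for 18.4%. DESeq2 called 0 of 10 between days 1 and 3, days 3 and 5 and days 5 and 7, against 0.181%, 0.00% and 0.0129% of all genes. The comparisons with day 3 share its tumors, and those with day 0 share the untreated ones, so their values are not independent of each other.

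Fos was compared with each of the other 9 genes across the 15 tumors, on log2 CPM. With Fosb, Pearson's r was 0.63 (permutation p = 0.0116, adjusted over 9 relations = 0.104) and Spearman's rho 0.68 (permutation p = 0.00643, adjusted = 0.0579). That r was 0.58 without the 2 tumors farthest from the median of Fos and 0.62 within harvest days. With Atf3, r was 0.46 (permutation p = 0.0802, adjusted = 0.361) and rho 0.42 (permutation p = 0.123, adjusted = 0.553), with r at 0.51 without the 2 farthest tumors and 0.40 within days. For Jun, Junb, Egr1, Egr2, Egr3 and Ier2, r with Fos lay between -0.14 and -0.05 (adjusted permutation p = 0.872 for each), and for Jund it was 0.31 (adjusted permutation p = 0.773). None of the 9 relations passed the adjustment.

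The other pairs are given as a description. They were looked at after the values were seen, and all share the same tumors, libraries and day means. Over all tumors, Jun, Junb, Egr1 and Ier2 varied most closely together, with r from 0.85 to 0.97 over their 6 pairs and from 0.63 to 0.92 within days. Without day 3 replicate 1, the lowest tumor for each of them, r over these pairs was from 0.70 to 0.92. Within these 4 genes, Egr2 and Egr3, the 9 pairs that include Egr2 or Egr3 had r from 0.52 to 0.71, but from -0.01 to 0.37 within days. Fosb, in contrast, had r of 0.60 with Jun and 0.58 with Junb over all tumors, and 0.82 and 0.85 within days. The values with Jun and Junb were 0.39 and 0.36 without day 3 replicate 1, whereas r of Fosb with Fos was 0.87 without it. Atf3 had r from -0.50 to -0.29 with the 6 genes that were lower on day 3, but from -0.43 to 0.12 without day 3 replicate 1 and from -0.50 to 0.07 within days.

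**Figure D4:**
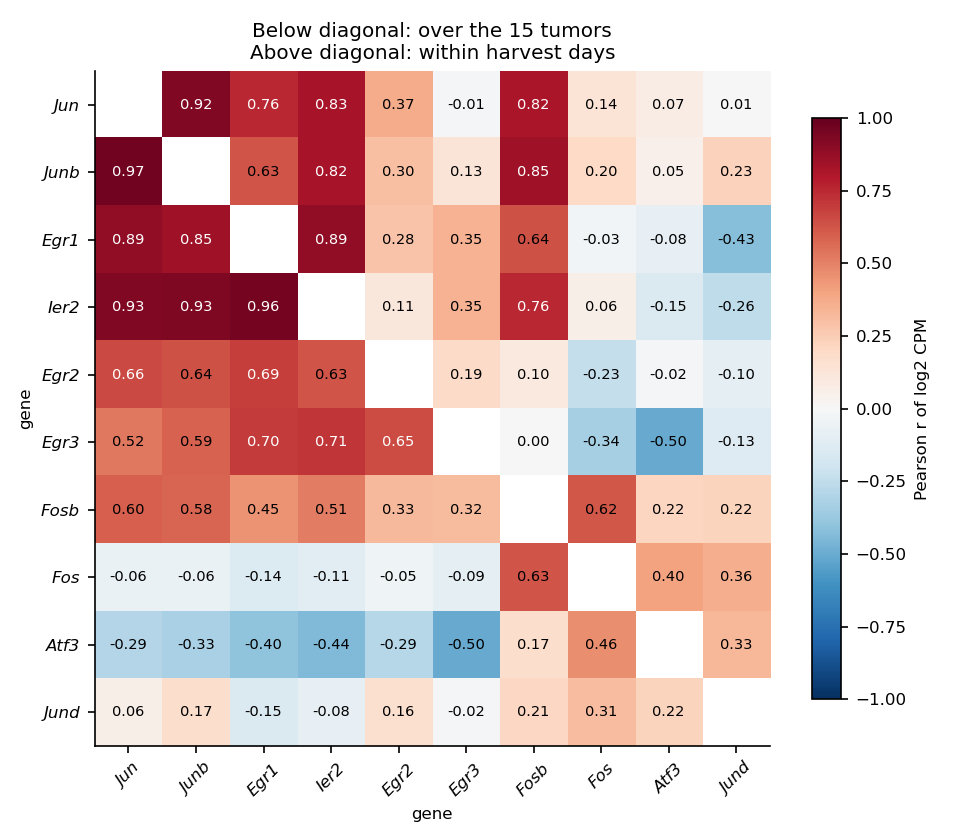
Pearson's r of log2 CPM for each pair of the 10 genes, over the 15 tumors (below the diagonal) and for deviations from the day means (above it), coloured from blue (-1) to red (1). Jun, Junb, Egr1 and Ier2 form a block with r from 0.85 to 0.97 (0.70 to 0.92 without day 3 replicate 1), and Fos has its highest r, 0.63, with Fosb.

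Among all tested genes outside the list, those most like the mean of the 10 over the 15 tumors were Has1 (r = 0.87), Coq10b (0.84), Twf1 (0.81), Pomgnt1 (0.81), Oaf (0.78), Yy1 (0.78), Dusp5 (0.78) and Surf2 (0.77). For single genes, the nearest was Zfp36, which encodes an mRNA-destabilising protein, for Fos (r = 0.92). The nearest to Fosb was Dusp5 (r = 0.89), a phosphatase acting on ERK kinases, and to Ier2 Hbegf (r = 0.94), an EGF receptor ligand. Egr1 was nearest to Slc20a1 (r = 0.90), a phosphate transporter, and Egr2 to Has2 (r = 0.81), a hyaluronan synthase. Junb was nearest to Has1 (r = 0.92), another hyaluronan synthase, Jun to Pomgnt1 (0.95), Egr3 to Cbfb (0.90), Atf3 to Rragc (0.91) and Jund to Mtpap (0.83). These are the highest values among all tested genes and carry no test. Without day 3 replicate 1, r of the same genes with the mean of the 10 was from 0.66 (Surf2) to 0.88 (Has1). For the single genes it was from 0.80 (Junb with Has1) to 0.92 (Fos with Zfp36 and Ier2 with Hbegf).

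The 10 genes were also set beside the rest of their pathway. Of 13 other AP-1 family genes, 4 were higher and 2 lower on day 3 than on day 0 at an unadjusted p under 0.05, against 18.3% and 11.7% of all genes, with a median log2 fold change of -0.04. When day 3 replicate 1 was left out, 1 was higher and 1 lower, against 6.52% and 6.56%, and the median was 0.08. Among those with the smallest joint p were Batf3 and Batf, factors known from dendritic cells and lymphocytes. Batf3 stood at 1.60 ± 0.285 CPM on day 0 and 6.14 ± 3.96 CPM on day 3 (SD, n = 3, as for the levels that follow), a log2 fold change of 1.93 (SE 0.55), and Batf had 1.93 (SE 0.67). In the absence of that tumor these were 1.26 (SE 0.51) and 1.12 (SE 0.63). Day 3 replicate 1 was the highest tumor for both, with 10.7 CPM of Batf3 against 3.97 and 3.74 CPM in the other day 3 tumors. Their edgeR adjusted p-values on day 3 were 0.115 and 0.118.

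Among 28 tested of 29 other immediate early genes, 4 were higher and 3 lower on day 3 at an unadjusted p under 0.05, shares near or below the 18.3% and 11.7% of all genes, and the median of their log2 fold changes was 0.07. On day 1 the count was 0 in either direction, against 2.18% of all genes higher and 0.981% lower. On day 3 without replicate 1 it was 1 higher and 2 lower, against 6.52% and 6.56%. Ier3, an apoptosis regulator, was at 45.6 ± 3.95 CPM on day 0 and 79.9 ± 19.7 CPM on day 7. Dusp2, a MAP kinase phosphatase of immune cells, was at 9.66 ± 1.09 CPM on day 0 and 18.4 ± 1.11 CPM on day 3 (log2 fold change 0.93, SE 0.35), and Btg2, a growth inhibitor, at 16.3 ± 2.47 and 34.8 ± 20.8 CPM. The log2 fold change of Btg2 on day 3 was 1.09 (SE 0.48), and 0.49 (SE 0.46) when day 3 replicate 1 was left out. Of 28 upstream MAPK and SRF regulators, 2 were higher and 8 lower on day 3 at an unadjusted p under 0.05, against 18.3% and 11.7% of all genes, with a median of -0.10. With day 3 replicate 1 left out, 2 were higher and 5 lower, against 6.52% and 6.56%, with a median of -0.06. Mapk3, which encodes ERK1, had a log2 fold change of -0.29 (SE 0.08), Spry1, a feedback inhibitor of that pathway, -1.18 (SE 0.31), and Nab2, a corepressor of EGR proteins, -0.33 (SE 0.14), with edgeR adjusted p-values of 0.115, 0.115 and 0.146. Their values without that tumor were -0.25, -1.25 and -0.17.

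On day 1, at an unadjusted p under 0.05, 0 of 12 heat shock and 0 of 14 hypoxia genes were higher or lower than on day 0. Of all genes, 2.18% were higher and 0.981% lower. On day 3 all 12 heat shock genes had log2 fold changes below 0, with a median of -0.27, as did 8060 of all 15494 genes. At an unadjusted p under 0.05, 1 was lower (Hspa1b, -1.10, SE 0.40), against 11.7% of all genes. Dnajb1 and Hspb1, also chaperones, had -0.18 (SE 0.15) and -0.43 (SE 0.24). When day 3 replicate 1 was left out, 7 of 12 lay below 0, as did 7814 of all 15378 genes, and the median was -0.0093. At an unadjusted p under 0.05, 0 were then higher or lower, against 6.52% and 6.56% of all genes. The heat shock genes summed to 3503 CPM in that tumor, against 7703 and 6867 CPM in the other day 3 tumors and 6706 to 7902 CPM on day 0. Hypoxia genes had a median of -0.45 on day 3 and 0.48 on day 7 against day 0, with 2 of 14 lower and 1 higher on day 3, against 11.7% and 18.3% of all genes, and 2 higher on day 7, against 1.05%, at an unadjusted p under 0.05. When day 3 replicate 1 was left out, the day 3 median was -0.27. On day 3, 0 of 14 then had an unadjusted p under 0.05, against 13.1% of all genes. On day 7, 4 of 14 were then higher and 0 lower, against 4.81% of all genes in either direction. Ankrd37, Egln3 and Ndrg1, which are induced at low oxygen, had day 3 values of -0.79 (SE 0.40), -0.96 (SE 0.39) and -0.46 (SE 0.30), and of -0.67, -0.60 and -0.31 without that tumor. None of the genes of these 5 lists was called by edgeR after adjustment in any comparison.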

How the data were processed

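Poly(A) RNA of 15 tumors was sequenced as 100 base single-end reads. FastQC 0.11.3 was the authors' read check. Abundances came from kallisto 0.43.0 on mm10 (GRCm38), tximport collapsed them to genes, and the deposited values are estimated counts in whole numbers. The transcript set and strand setting are not given in the sources used here, and counts of overlapping or near-identical genes are uncertain. Of 32544 entries, 9156 had no count and 1 date entry, at most 0.0268% of a tumor's counts, was left out. The matching of names to mouse symbols ignored case and succeeded for 31401.

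Genes over 0.366 CPM in 3 or more tumors were tested with edgeR 4.0.16 (R 4.3.3, TMM, quasi-likelihood F test, two-sided, harvest day as the term, all 15 tumors, Benjamini-Hochberg adjustment over 15494 genes). The fit was tested on simulated counts with the same spread for every gene and no tumor that stood apart. That test therefore says little of the counts of genes called here. DESeq2 1.42.0 and limma-voom 3.58.1 were alternatives. Correlations used log2 CPM with a prior count of 2 and 100000 permutations. Coordinates are from GENCODE M21 and promoter windows from RefSeq.

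Named were the 10 genes, the 3 genes of each other list with the smallest joint p (1 of them is not reported here), and the genes most like the 10. Members and lists were chosen with earlier results of these data known. Ca12 of the hypoxia list was not matched. Leaving out day 3 replicate 1 under DESeq2 and for the other lists was chosen after the data were seen. Replicate numbers were taken from the labels and no tumors were pooled. No 2 tumors of the same day agreed within counting noise (chi-square per degree of freedom 9.32 to 269).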

Additional observations from a re-analysis of the deposited data

How the results depend on the processing

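By edgeR, the count of the 10 genes called was 0 in all 9 tests and stayed 0 with relative log expression factors, library sizes alone, no filter, only the 6 tumors compared (8 tests), limma-voom and each tumor left out in turn, except that without day 3 replicate 3 the count between days 3 and 7 was 3, so that this range was 0 to 3, with 2104 called over all genes. DESeq2 called 1 on day 1, 5 on day 3, 4 between days 3 and 7 and 4 in the joint test, and over all genes 40, 2003, 3232 and 1186 against 0 by edgeR. DESeq2 without day 3 replicate 1, an alternative added after the data were seen, called 3, 2, 0 and 3 in those tests, and 71, 87, 87 and 176 over all genes. Why the tools differ was not tested. Replicate numbers did not pair the tumors: deviations from day means correlated at -0.62 to 0.51 over 30 same-numbered pairs, 9 of them over 0.1, and 2 of 15 tumors correlated best with their own number. With the replicate number as a block, 0 of the 10 genes and 0 of all genes were called in each test. The unadjusted p of Egr3 (edgeR) was then 0.0550 on day 1 and 0.0551 on day 3, against 0.0418 and 0.04996 without the block. The day 3 value of Fosb changed sign under the block (-0.023) and under limma-voom (-0.031), and Jund on day 3 against day 1 with no filter (-0.0097). DESeq2 without day 3 replicate 1 changed the sign of Jund (-0.018), Egr1 (0.080) and Atf3 (-0.089) on day 3 against day 1 and of Fosb (-0.34) on day 7 against day 3. Over the alternatives other than the added one, 1708 of 1760 recomputed fold changes kept their sign. With 1 tumor left out, these changed sign, given as the range of log2 fold changes: on day 1 against day 0, Fos -0.69 to 0.16, Fosb -0.59 to 0.14 and Atf3 -0.052 to 0.94. On day 3 against day 0, Fosb -0.11 to 0.46. On day 5 against day 0, Jund -0.097 to 0.036 and Egr2 -0.26 to 0.11. On day 7 against day 0, Fos -0.59 to 0.62, Fosb -0.18 to 0.33, Junb -0.13 to 0.0043, Egr3 -0.22 to 0.16, Atf3 -0.034 to 0.32 and Ier2 -0.14 to 0.033. On day 3 against day 1, Fosb -0.051 to 0.70, Jund -0.054 to 0.11, Egr1 -0.50 to 0.077, Egr2 -0.044 to 0.099, Egr3 -0.20 to 0.32 and Atf3 -0.20 to 0.80. On day 5 against day 3, Fos -0.12 to 0.41 and Jund -0.032 to 0.10. On day 7 against day 5, Jun -0.050 to 0.066, Junb -0.023 to 0.075, Egr1 -0.11 to 0.33, Egr3 -0.37 to 0.0061 and Ier2 -0.021 to 0.16. On day 7 against day 3, Fosb -0.34 to 0.22. Ranges of r with Fos were likewise Jun -0.20 to 0.21, Junb -0.16 to 0.17, Egr1 -0.28 to 0.024, Egr2 -0.18 to 0.073, Egr3 -0.26 to 0.049 and Ier2 -0.21 to 0.086. The correlation of Fos with Atf3 was 0.62 (permutation p = 0.0160, unadjusted) without day 7 replicate 2. Counts were lowest for Egr3 (55 to 149) and Fosb (94 to 659), and there were 3 tumors a day.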
